A study of Mus musculus with 2 samples.

Results

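The Gzmk-positive T cells described here are 278 cells of mouse bone marrow. They were chosen by count: kept barcodes of the library labelled WT with at least 2 UMIs (unique transcript counts) of Cd3d, Cd3e and Cd3g together, no UMI of Cd79a and at least 1 UMI of Gzmk. They were 278 of 11119 CD3-positive cells and of 12367 kept cells in that library, and of 20322 kept cells in the series. The series held 2 single-cell 3' libraries, 1 from Irf4-/- mice and 1 from WT C57BL/6 mice. In each, bone marrow cells had been sorted as natural killer progenitors (NKP), which here meant positive for CD122 and negative for Ncr1, NK1.1, c-kit, Sca-1 and lineage markers. The age, sex and number of mice were not given in the sources used here, no treatment was named, and the kit text spoke of nuclei although cells were sorted. Which exons the Irf4 allele is missing was not stated either.

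Granzyme K is a serine protease of the cytotoxic granule. In mice and humans Gzmk marks antigen-experienced CD8 T cells, among them cells that carry the inhibitory receptor PD-1 and the transcription factor Tox. Lag3 and Havcr2 (TIM-3) encode further inhibitory receptors of chronically stimulated T cells, and Maf encodes a transcription factor that drives Il10 and inhibitory receptor genes. CD122, the beta chain shared by the interleukin-2 and interleukin-15 receptors, is carried by memory CD8 T cells as well as by cells of the natural killer lineage, and bone marrow is a known reservoir of memory T cells. IRF4 is a transcription factor induced by antigen receptor signals.

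The Gzmk and Havcr2 genes, which chose or marked the cells, and Gzmb, the granzyme gene with the largest ratio below, are shown by the 250 bases before their RefSeq start (GRCm38.p6). Gzmk (ENSMUSG00000042385) lies on the minus strand of chromosome 13 from 113171608 to 113225908 and its window at chr13:113180966-113181215, inside the GENCODE M21 gene. Havcr2 (ENSMUSG00000020399) lies on the plus strand of chromosome 11 from 46454935 to 46481255, with its window at chr11:46454681-46454930. Gzmb (ENSMUSG00000015437) lies on the minus strand of chromosome 14 from 56258838 to 56262260, with its window at chr14:56262335-56262584. Capitals mark matches, on either strand, to the T-box core GGTGTGA, the Runx motif TGTGGT, the AP-1 motif TGANTCA and the Maf half-site TGCTGA.
Gzmk: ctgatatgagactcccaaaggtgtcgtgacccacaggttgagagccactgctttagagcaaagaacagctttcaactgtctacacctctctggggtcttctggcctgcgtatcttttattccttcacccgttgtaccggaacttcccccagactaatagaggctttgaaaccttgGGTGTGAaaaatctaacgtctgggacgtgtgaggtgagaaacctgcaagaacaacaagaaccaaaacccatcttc
Havcr2: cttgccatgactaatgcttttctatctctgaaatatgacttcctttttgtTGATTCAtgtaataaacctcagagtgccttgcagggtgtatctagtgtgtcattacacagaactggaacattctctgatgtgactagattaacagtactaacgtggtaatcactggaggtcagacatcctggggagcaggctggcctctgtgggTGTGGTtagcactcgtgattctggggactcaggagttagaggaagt
Gzmb: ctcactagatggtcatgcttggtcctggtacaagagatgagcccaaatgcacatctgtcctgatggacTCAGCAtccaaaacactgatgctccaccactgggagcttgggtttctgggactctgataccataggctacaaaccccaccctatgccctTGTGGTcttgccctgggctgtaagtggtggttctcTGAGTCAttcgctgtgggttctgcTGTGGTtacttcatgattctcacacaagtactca
The Gzmk window held a T-box core 75 bases before the start. The Havcr2 window held an AP-1 match 200 bases and a Runx match 46 bases before it. The Gzmb window held Runx matches 93 and 34 bases and an AP-1 match 58 bases before the start, and a reverse-strand Maf half-site 182 bases before it. No matches overlapped. Of 32536 windows of this length in the table, 3.33% held the T-box core, 14.0% the Runx motif, 6.73% the AP-1 motif and 16.1% the Maf half-site, so these matches describe the windows only.

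Depth and library facts that touch the results were these. The libraries held 82599767 UMIs (labelled Irf4-/-) and 95031071 UMIs (labelled WT). Gzmk-positive cells were shallower, with a median of 5012 UMIs and 1745.5 genes per cell, against 7273 UMIs and 1981 genes in the other 10841 CD3-positive cells of the same library, and their median mitochondrial share was 2.50% against 3.47%. The libraries shared 27 barcodes, none of them a Gzmk-positive T cell. Irf4 itself had 192 UMIs (2.65 CPM, counts scaled to the summed UMIs of a population) in CD3-positive cells of the library labelled Irf4-/-, against 95 UMIs (1.09 CPM) in those of the library labelled WT. It was thus higher where the label names a knockout, and since 3' tags may lie outside what was deleted this does not test the genotype. With 1 library per genotype no test was made. Intervals are 95% intervals that cover counting error only.

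Gzmk was a rare transcript of this sort. It was detected in 2.50% of CD3-positive cells of the library labelled WT (exact interval 2.22 to 2.81), and in 1.49% after each cell was thinned to 2000 UMIs. Among 846 cells with Cd79a and no CD3, B-lineage cells with a median depth of 2973 UMIs that should lack the gene, 1 cell had a Gzmk UMI, a share of 0.118% (0.00299 to 0.657). Of the 278 cells, 116 had 1 Gzmk UMI, 58 had 2, 40 had 3 and 64 had 4 or more, with 15 as the highest value. No Gzmk UMI was found in 365 barcodes that failed the cell filter, nor in 69 kept cells with fewer CD3 counts and no Cd79a.

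The label held against its markers, which were given together with the cells and so are a description. Maf (ENSMUSG00000055435, chromosome 8, 115682942 to 115707794, minus strand) stood at 258 CPM (235 to 283) in Gzmk-positive cells and at 2.75 CPM in other CD3-positive cells, a log2 ratio of 6.55 (6.32 to 6.79). The ratio was 4.85 when the other cells were reweighted to the depths of the Gzmk-positive cells, and 4.75 when they were reweighted to their coreceptor classes. The latter gives much weight to the 15 of 10841 other cells with UMIs of both coreceptors. Among cells with CD8 transcripts and no Cd4 the ratio was 7.01. Lag3 (ENSMUSG00000030124, chromosome 6, 124904361 to 124911705, minus strand) stood at 131 CPM in Gzmk-positive and 1.96 CPM in other cells, a log2 ratio of 6.07 (5.77 to 6.36), or 4.38 at matched depth. Havcr2 stood at 129 CPM and 0.526 CPM, a log2 ratio of 7.93 (7.47 to 8.43), or 5.34 at matched depth. Matched depth here means the reweighting, which changes the weight of each other cell. With every cell thinned to 2000 UMIs instead, the ratios were 6.34 for Maf, 5.83 for Lag3 and 7.55 for Havcr2. Each marker thus separated the groups by at least an order of magnitude under every alternative named here.

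Detection per cell also separated the groups. A Maf UMI was seen in 50.7% of Gzmk-positive cells (44.7 to 56.7), against 1.06% of other CD3-positive cells and 2.25% of the Cd79a cells. Lag3 was seen in 45.0% of Gzmk-positive and 1.11% of other cells, and Havcr2 in 41.4% and 0.194%. Neither was seen in any of the 846 Cd79a cells, for which the exact interval reaches 0.435%. After thinning, the shares in Gzmk-positive cells were 33.2% for Maf, 24.9% for Lag3 and 24.9% for Havcr2, against 0.564%, 0.434% and 0.157% in other cells. At least 1 of these 3 markers was detected in 187 Gzmk-positive cells and at least 2 in 139, so 91 cells had none at this depth.

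Nearly all Gzmk-positive cells carried CD8 transcripts. In 252 of 278 cells (90.6%, 86.6 to 93.8) Cd8a or Cd8b1 was detected without Cd4, against 7368 of 10841 other CD3-positive cells (68.0%). After thinning the shares were 87.0% and 51.4%. Another 16 Gzmk-positive cells had UMIs of both coreceptors, 10 had neither, and none had Cd4 alone. Cd8b1, the beta chain of the CD8 coreceptor, stood at 1018 CPM in Gzmk-positive and 499 CPM in other cells. Of the 14 coreceptor and T cell lineage genes that reached a mean of 30 CPM, 4 were at least 2-fold higher and none 2-fold lower, with a median log2 ratio of 0.78. They included Trbc1, a beta chain constant gene whose reads can be split with Trbc2, at 1517 CPM against 622 CPM.

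Genes of gamma-delta T cells were low. Trdc, the delta chain constant gene, was detected in 8 Gzmk-positive cells (2.88%) and in 14.5% of other CD3-positive cells, at 21.4 CPM and 130 CPM. Of those UMIs in Gzmk-positive cells, 86.8% came from 5 cells. Cd163l1 was at 0 in Gzmk-positive cells and had 454 UMIs in others.

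Across all genes, 3769 reached a mean of 30 CPM over the groups. Of these, 182 (4.83%) were at least 2-fold higher and 53 (1.41%) at least 2-fold lower in Gzmk-positive cells than in other CD3-positive cells. The median gene had a log2 ratio of 0.21 and the 84 ribosomal protein genes one of -0.42. Relative to the median gene, 120 genes were at least 2-fold higher and 93 lower, so the split between higher and lower genes depends on the scaling. Because the cells were chosen within this contrast, and a gene low in other cells reached 30 CPM only through Gzmk-positive cells, these counts and those of the lists below are a description only. Ratios below are not centred and can be read against 0.21.

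**Figure D1:**
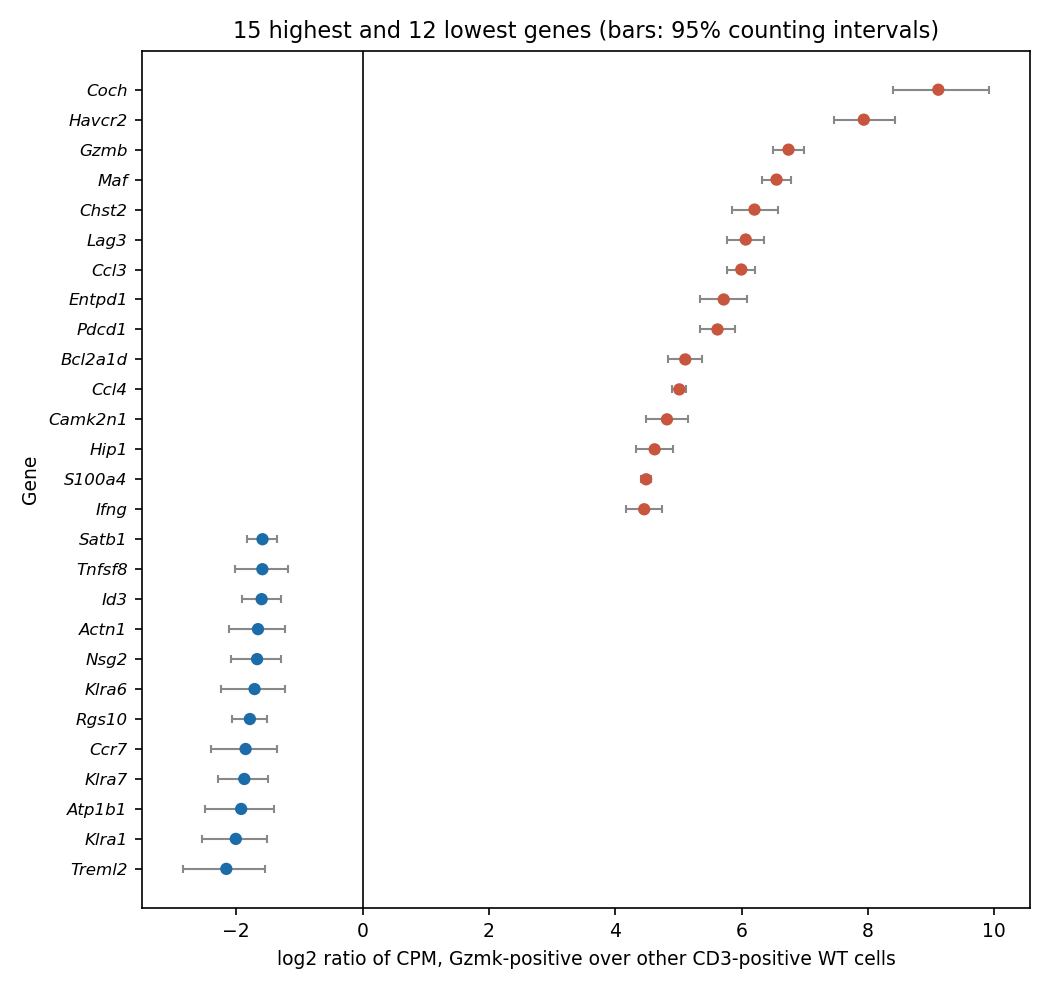
Log2 ratio of CPM (x axis), Gzmk-positive over other CD3-positive cells of the library labelled WT, for the 15 highest and 12 lowest genes by rule (y axis), with 95% counting intervals. Coch lies farthest right at 9.11 and Treml2 farthest left at -2.16.

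The highest gene was Coch, which encodes cochlin, a secreted protein best known from the inner ear. Coch (ENSMUSG00000020953, chromosome 12, 51593341 to 51605771, plus strand) had 196 UMIs in 79 Gzmk-positive cells, 110 CPM, against 17 UMIs in 12 of the other 10841 cells, 0.199 CPM. The log2 ratio was 9.11 (8.40 to 9.92), and it was 6.51 at matched depth and 8.86 without the 5 cells with most Coch UMIs, a check added after seeing the data. Coch thus marked 28.4% of Gzmk-positive cells and 0.111% of others, with 1 of 846 Cd79a cells (0.118%) as the background. Chst2, a carbohydrate sulfotransferase gene, had 90.5 CPM in Gzmk-positive and 1.23 CPM in other cells, a log2 ratio of 6.20. Bcl2a1d, a survival gene with near-identical copies, had 111 CPM and 3.23 CPM in the same groups. Camk2n1, an inhibitor of a calcium-dependent kinase, had 70.2 CPM and 2.49 CPM, and Hip1, an endocytic adaptor gene, 79.8 CPM and 3.24 CPM.

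The lowest gene was Treml2, a receptor of the TREM family, with 11.8 CPM in Gzmk-positive and 52.7 CPM in other cells, a log2 ratio of -2.16 (-2.85 to -1.54). Rgs10, a G protein signalling regulator, had 59.0 CPM and 203 CPM, Nsg2 31.5 CPM and 100.2 CPM, and Atp1b1, a sodium pump subunit, 16.9 CPM and 63.9 CPM. Tnfsf8, which encodes CD30 ligand, had 27.0 CPM and 81.1 CPM, and Actn1, an actin crosslinker, 24.7 CPM and 78.0 CPM. All 12 lowest genes lay between -2.16 and -1.59, and all 15 highest between 4.46 and 9.11, or between 3.69 and 6.51 at matched depth.

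Several cytotoxic genes were higher. Of 17 granule and death ligand genes in the files, 14 reached 30 CPM, and 8 of these were at least 2-fold higher and none 2-fold lower, with a median log2 ratio of 1.15. Gzmb, a granzyme that triggers caspases in target cells, stood at 253 CPM in Gzmk-positive and 2.36 CPM in other cells, a log2 ratio of 6.74 (6.50 to 6.99), or 5.01 at matched depth. Fasl, the ligand of the death receptor Fas, stood at 105 CPM and 7.74 CPM. Prf1, the pore-forming perforin, stood at 143 CPM and 34.9 CPM, and Nkg7, a granule membrane protein gene, at 2523 CPM and 726 CPM. Of the 14 genes, 12 lay above 0, with Lamp1 (-0.13, -0.40 to 0.12) and Ctsw (-0.30, -0.43 to -0.16) below it. The granzyme gene Gzmm was at 0.51 (0.20 to 0.79). Gzma stood at 121 CPM and 5.67 CPM, but 75.8% of its UMIs in Gzmk-positive cells came from 5 cells, without which its log2 ratio was 2.41 in place of 4.41. The granzyme genes are similar in sequence, and how the counting split such reads was not tested.

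Among inhibitory and costimulatory receptors, 6 of 13 genes at 30 CPM were at least 2-fold higher and none 2-fold lower, with a median of 0.91. Without the given markers Lag3 and Havcr2 the count was 4 of 11 (Pdcd1, Entpd1, Icos and Slamf7), with a median of 0.61. Pdcd1, which encodes PD-1, had 131 CPM in Gzmk-positive and 2.67 CPM in other cells, a log2 ratio of 5.62 (5.35 to 5.89), or 4.28 at matched depth, and was detected in 45.0% and 1.44% of cells. Entpd1, the ectonucleotidase CD39, had 71.9 CPM and 1.37 CPM. Below the minimum, Tigit had 28 and 41 UMIs (log2 ratio 5.04) and Ctla4 had 38 and 101 UMIs (4.18). Others were nearer to equal, with Cd27 at 0.28 and Cd226 at 0.25 on the log2 scale, Slamf6, at 0.05, below the median gene, and the receptors Cd160 and Cd96 at -0.06 and -0.22. Icos, a costimulatory receptor, was at 1.69.

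Transcription factors of effector and exhausted T cells were higher in 8 of the 10 that reached 30 CPM, with none 2-fold lower and a median of 1.61. Without the given marker Maf these were 7 of 9, with a median of 1.37. Id2, an inhibitor of E proteins in effector cells, had 855 CPM in Gzmk-positive and 63.4 CPM in other cells. Tox, a factor of exhausted T cells, had 278 CPM and 49.4 CPM, and Eomes, a T-box factor of memory and exhausted CD8 T cells, 190 CPM and 74.7 CPM. Tbx21, the T-box factor T-bet, was below the minimum at 25.8 CPM and 27.7 CPM, a log2 ratio of -0.10 (-0.56 to 0.32). Tox2 had 44 and 22 UMIs (6.59), Prdm1, which encodes Blimp-1, 70 and 152 UMIs (4.47), and Nr4a2, induced by antigen receptor signals, 92 and 334 UMIs (3.73). Irf4 had 24 UMIs in 17 Gzmk-positive cells and 71 UMIs in 65 others, a log2 ratio of 4.02 (3.29 to 4.71). Thus 2.50% of the cells held 25.3% of the Irf4 UMIs of CD3-positive cells in that library. Of those 24 UMIs, 12 came from 5 cells.

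Of 7 cytokine and chemokine genes at 30 CPM, 4 were at least 2-fold higher and none 2-fold lower, with a median of 2.94. The others were Xcl1 (0.44), Tgfb1 (0.43) and Ltb (-0.35). Ccl5, a chemokine stored by memory CD8 T cells, had 28319 CPM in Gzmk-positive and 3684 CPM in other cells, a log2 ratio of 2.94. Ccl3 had 221 CPM and 3.47 CPM, a log2 ratio of 5.99, and Ccl4 had 613 CPM and 19.0 CPM, a ratio of 5.01. A few cells carried much of the last pair. Without the 5 cells with most UMIs of the gene, the ratio was 5.24 for Ccl3 and 3.94 for Ccl4. Ifng, the effector cytokine interferon gamma, had 83.7 CPM and 3.81 CPM, a log2 ratio of 4.46. Il10 had 20 UMIs in 7 Gzmk-positive cells, 18 of them in 5 cells, against 3 UMIs in all others. Il21 had 7 UMIs in Gzmk-positive cells and none elsewhere in CD3-positive cells of that library, while Il4, Il13 and Il17a were at 0 in Gzmk-positive cells.

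Chemokine receptors and integrins differed in both directions. Of 13 chemokine receptor and integrin genes at 30 CPM, 7 were at least 2-fold higher and 1 lower, with a median of 1.09. Cxcr6, a receptor of tissue-resident cells, had 175 CPM in Gzmk-positive and 43.0 CPM in other cells, and Ccr2 74.7 CPM and 17.5 CPM. Itga4, the alpha chain of the integrin VLA-4 that binds VCAM-1 in bone marrow, had 774 CPM and 224 CPM. The 1 lower gene was Ccr7, the lymph node homing receptor, with 18.0 CPM and 65.0 CPM. Cxcr3 (0.23), Cd44 (0.07), Itgb7 (-0.55), S1pr1 (-0.88) and Cd69 (-0.89) did not reach 2-fold. Below the minimum, Cx3cr1 had 59 and 68 UMIs, a log2 ratio of 5.38.

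Naive and stem-like genes were lower throughout. None of the 13 that reached 30 CPM lay above 0, and 9 were at least 2-fold lower, with a median of -1.38. Il7r, the interleukin-7 receptor of long-lived T cells, had 211 CPM in Gzmk-positive and 509 CPM in other cells. Tcf7, which encodes the stem-like factor TCF-1, had 138 CPM and 309 CPM, Lef1 82.0 CPM and 235 CPM, and Satb1 80.9 CPM and 243 CPM. Id3, a factor of stem-like and memory precursor cells, had 89 and 12959 UMIs, a log2 ratio of -1.60.

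**Figure D2:**
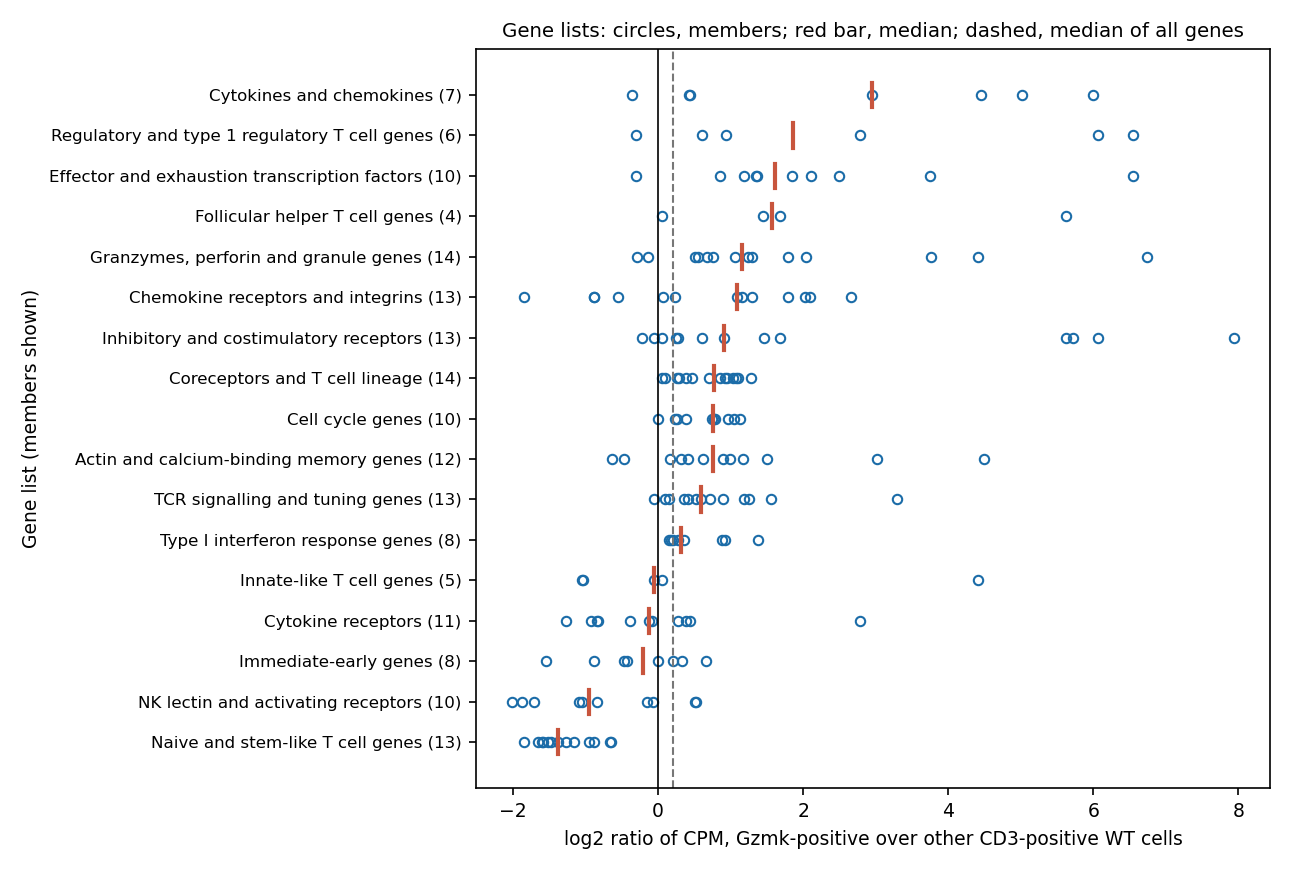
Log2 ratio of CPM (x axis), Gzmk-positive over other CD3-positive cells of the library labelled WT, for genes with a mean of at least 30 CPM in each gene list that had at least 4 of them, leaving out the given markers' own list (y axis, number of genes in brackets). Circles are genes, red bars list medians and the dashed line the median of all 3769 genes, 0.21, with the cytokine list farthest right at 2.94 and the naive list farthest left at -1.38.

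In the list of natural killer lectin and activating receptor genes, 5 of 10 were at least 2-fold lower and none 2-fold higher, with a median of -0.95. These were 4 of the 8 lectin genes and Fcer1g, an Fc receptor adaptor chain. Within cells with CD8 transcripts alone, 3 of 8 list genes were 2-fold lower and 1 higher, with a median of -0.49. The Ly49 genes Klra1, Klra6 and Klra7, whose reads can be split between near-identical copies, had 18.5, 19.1 and 30.9 CPM in Gzmk-positive cells, against 74.6, 62.5 and 113 CPM in other cells. Among cytokine receptors, Il10ra had 70.2 CPM and 10.2 CPM, and Il2rb, which encodes the sorted protein CD122, 393 CPM and 289 CPM. Of 12 actin and calcium-binding genes linked to memory, 4 were at least 2-fold higher and none 2-fold lower, with a median of 0.75. S100a4 stood at 946 CPM and 42.1 CPM, a log2 ratio of 4.49. It was 3.39 with other cells reweighted to coreceptor classes and 5.17 within cells with CD8 transcripts alone. S100a6 stood at 1313 CPM and 163 CPM, while S100a10 and S100a13 did not reach 2-fold. In the antigen receptor signalling list 4 of 13 genes were at least 2-fold higher, led by Rgs1, a G protein signalling regulator, at 233 CPM and 23.8 CPM.

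Most interferon response, immediate-early and cell cycle genes stayed within 2-fold. Among all 3769 genes, 4.83% were at least 2-fold higher and 1.41% lower, and lists this small cannot be set closely against those shares. Of 8 type I interferon response genes 1 was at least 2-fold higher, Ifi27l2a at 524 CPM against 202 CPM, and the list median was 0.32. Of 8 immediate-early genes 1 was at least 2-fold lower, Jun at 24.2 CPM against 70.4 CPM, and the median was -0.21. All 10 cell cycle genes lay above 0 and 2 were at least 2-fold higher, with a median of 0.76. Mki67, a marker of cycling cells, was detected in 15.5% of Gzmk-positive cells and 3.34% of others, or in 9.03% and 2.14% after thinning, while its CPM was 106 and 61.6. In Gzmk-positive cells 53.7% of Mki67 UMIs came from 5 cells. Below the minimum, Foxp3, the factor of regulatory T cells, had 4 and 48 UMIs, or 2.25 CPM in Gzmk-positive and 0.561 CPM in other cells. Its log2 interval was wide, at 0.07 to 3.45. The follicular helper gene Bcl6 had 5 and 222 UMIs, a log2 ratio of 0.11 (-1.52 to 1.36). Of 6 regulatory list genes at 30 CPM, the given markers Maf and Lag3 and Il10ra, 3 in all, were at least 2-fold higher. The median was 1.86. Of 4 follicular helper list genes, 3 were at least 2-fold higher (Pdcd1, Icos and Sh2d1a), with a median of 1.57. None in either list was 2-fold lower.

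Markers of other cell types were measured beside these groups. Of 8 B cell markers, Ms4a1 and H2-Aa were among those at 0 in Gzmk-positive cells, as was Cd79a by choice, and the summed level was 168 CPM in Gzmk-positive and 239 CPM in other cells. Igkc was detected in 15.8% of Gzmk-positive and 2.19% of other cells, but Ighm in 31.7% and 73.4%. The 9 myeloid markers summed to 21.4 CPM and 17.2 CPM, with Cd14, Elane and Mpo at 0 in Gzmk-positive cells. Of the 4 with at least 20 UMIs in all, 1 was at least 2-fold higher and 2 lower. The higher one was Cd68, at 14.0 CPM and 1.16 CPM. The 8 natural killer and innate lymphoid markers summed to 418 CPM and 293 CPM, with Ncr1 at 0. Of the 7 with at least 20 UMIs, 3 were at least 2-fold higher, led by Klrg1 (4.68), and 3 lower. The 8 dendritic markers summed to 125 CPM and 104 CPM, with Clec9a and Cd209a at 0. Bst2 held 194 of their 223 UMIs in Gzmk-positive cells and 8387 of 8892 in others. Of the 4 with at least 20 UMIs, Siglech (3.42) and Itgax (2.78) were at least 2-fold higher and 1 lower. The 5 plasma cell markers summed to 71.4 CPM and 21.6 CPM, with Jchain, Sdc1 and Mzb1 at 0 and Prdm1 and Xbp1 as the rest. The 8 erythroid, platelet and progenitor markers summed to 16.9 CPM and 725 CPM, and 37215 of the 38057 Hbb-bs UMIs of other cells came from 19 cells. Apart from the alternative that left out cells with B, myeloid or plasma cell markers, where the log2 ratio was 6.56 for Maf and 8.03 for Havcr2, the part of free RNA or doublets in these values was not tested.

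The contrast was also made within the CD8 class. Among 3737 genes, 201 (5.38%) were at least 2-fold higher and 53 (1.42%) lower in the 252 Gzmk-positive CD8-class cells than in the 7368 others. The log2 ratio was 8.79 for Coch, 7.50 for Havcr2, 7.01 for Maf, 6.62 for Gzmb, 6.11 for Lag3, 6.07 for Pdcd1 and 5.17 for S100a4. Ccr7 was at -2.00 and Lef1 at -1.56. The 16 cells with both coreceptors had 625 CPM of Maf, 585 CPM of Gzmb and 216 CPM of Pdcd1 in 124802 UMIs. The 10 cells with neither had no UMI of Maf, Lag3, Havcr2, Pdcd1 or Gzmb in 58138 UMIs, and 206 CPM of Trdc.

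Maf, Havcr2 and Gzmb were higher at each higher number of Gzmk UMIs, and Tcf7 was lower. In cells with 0, 1, 2, 3 and 4 or more Gzmk UMIs, Maf stood at 2.75, 131, 225, 324 and 517 CPM. Havcr2 stood at 0.526, 62.3, 120, 172 and 249 CPM in the same cells, and Gzmb at 2.36, 130, 230, 269 and 525 CPM. The classes come from the Gzmk counts that chose the cells, so these values are a description. Lag3, at 1.96, 87.8, 115, 244 and 169 CPM, and Pdcd1, at 2.67, 77.6, 144, 202 and 185 CPM, were not highest in the top class. Tcf7 stood at 309, 181, 173, 105 and 34.8 CPM and Il7r at 509, 260, 280, 160 and 69.6 CPM. Median depth was 7273, 5762.5, 5477.5, 4268.5 and 4627.5 UMIs per cell over the 5 classes.

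**Figure D3:**
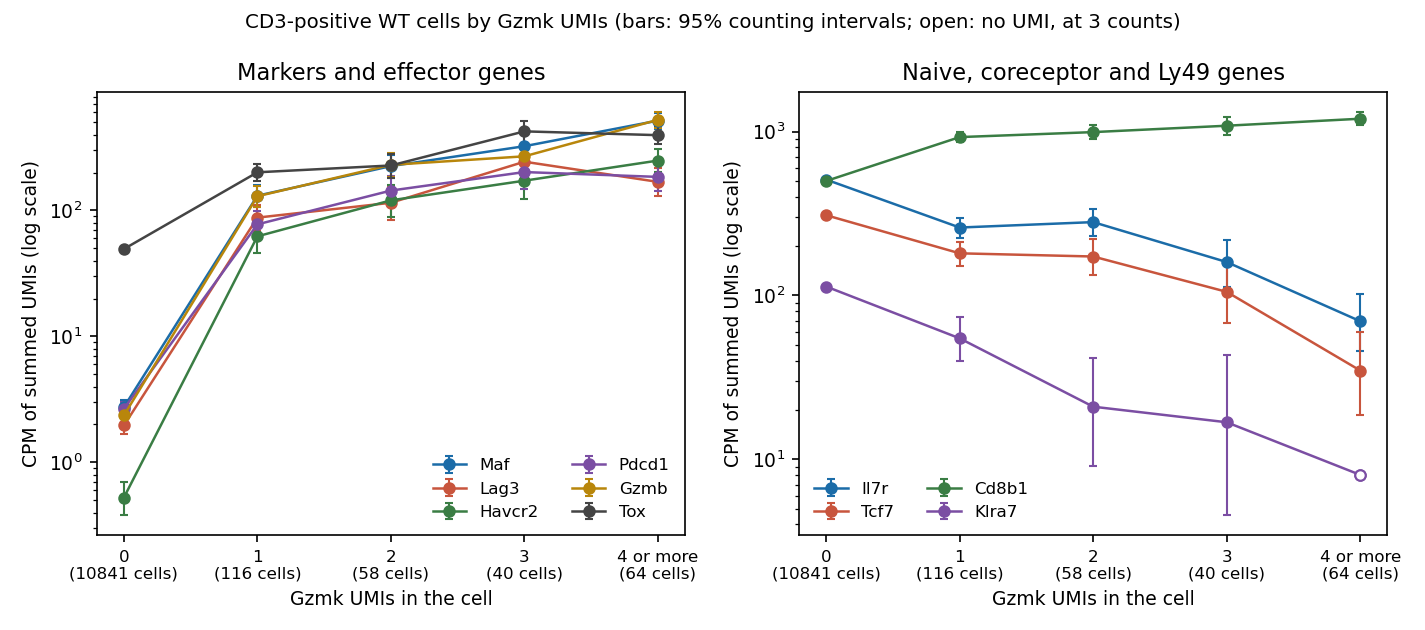
CPM of summed UMIs (y axes, log scale) against the number of Gzmk UMIs in the cell (x axes, with cell numbers) for CD3-positive cells of the library labelled WT. Left, marker and effector genes, with Maf at 2.75 CPM in cells without Gzmk and 517 CPM at 4 or more UMIs. Right, naive, coreceptor and Ly49 genes, with Tcf7 at 309 and 34.8 CPM. Bars are 95% counting intervals and the open circle is a gene with no UMI, drawn at 3 counts.

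The Gzmk-positive cells were not uniform. Split by detection of Maf, Lag3 and Havcr2, a split made after the data were seen, 91 cells had none (median depth 6171 UMIs), 48 had 1 (3799.5 UMIs) and 139 had 2 or 3 (4606 UMIs). Pdcd1, which the split did not use, stood at 218 CPM in cells with 2 or 3 markers, against 10.8 CPM in cells with none. Coch stood at 195 CPM in cells with 2 or 3 markers and at 1.55 CPM, 1 UMI, in cells with none. Cells with 1 marker lay between, at 142 CPM of Pdcd1 and 98.5 CPM of Coch. Ranked over 1138 genes with a mean of at least 100 CPM, whose median log2 ratio was 0.16, the genes highest with 2 or 3 markers were Pdcd1 (4.33), Ccl3 (3.20 to 4.92) and Ccl4 (3.55, 3.14 to 3.99), followed by 2 histone genes, Hist1h3c with UMIs in only 7 and 2 cells. Gzmb (2.11), S100a4 (1.98 to 2.42) and Rgs1 (2.23) were among the 12 highest.

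Cells with none of the markers carried another set of genes. The lowest ratio was that of Klrk1, which encodes the activating receptor NKG2D, with 18.6 CPM in cells with 2 or 3 markers and 373 CPM in cells with none, a log2 ratio of -4.32 (-5.15 to -3.60), detected in 6 of 139 and 52 of 91 cells. Ly6c2, a surface protein of memory CD8 T cells, stood at 307 CPM and 1274 CPM, Klrd1, the CD94 lectin, at 101 CPM and 297 CPM, and Itgb1, an integrin beta chain, at 129 CPM and 522 CPM. Ccr2 stood at 16.3 CPM and 172 CPM and Gzmm, another granzyme gene, at 8.15 CPM and 111 CPM. Slamf6, Tcf7 and Klf2, genes of stem-like and recirculating T cells, stood at 55.9, 82.6 and 170 CPM, against 173, 217 and 478 CPM. Itga4 and Cd8b1 were nearly alike, with log2 ratios of -0.26 and 0.18. Ccl5 stood at 39451 CPM in cells with 2 or 3 markers and 13853 CPM in cells with none, and at 3684 CPM in CD3-positive cells without Gzmk.

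**Figure D4:**
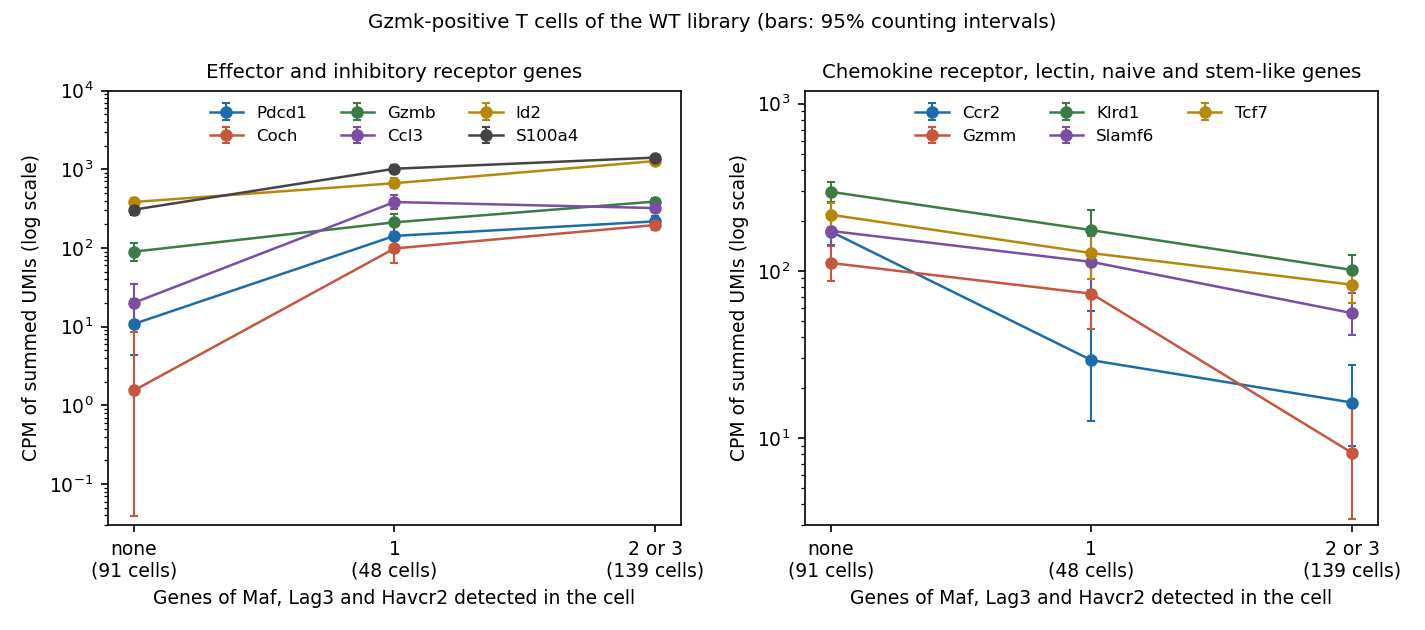
CPM of summed UMIs (y axes, log scale) in Gzmk-positive T cells with none, 1, and 2 or 3 of Maf, Lag3 and Havcr2 detected (x axes, with cell numbers). Left, effector and inhibitory receptor genes, with Pdcd1 at 10.8, 142 and 218 CPM. Right, chemokine receptor, lectin, naive and stem-like genes, with Ccr2 at 172, 29.2 and 16.3 CPM. Bars are 95% counting intervals.

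Some cells outside the gate carried the markers. Among the other CD3-positive cells, 29 (0.268%) had at least 2 of Maf, Lag3 and Havcr2 but no Gzmk UMI, at a median depth of 3901 UMIs. The 139 Gzmk-positive cells with as many markers had 389 CPM of Gzmb, 218 CPM of Pdcd1 and 39451 CPM of Ccl5, against 333, 161 and 35723 CPM in these 29 cells. Coch stood at 195 CPM in the 139 cells and at 29.8 CPM in the 29. Whether these cells lacked Gzmk or its UMI was missed was not tested. The Gzmk-positive cells without these markers had 111 CPM of Gzmm, 89.8 CPM of Gzmb and 842 CPM of Itga4, against 125, 3.26 and 110 CPM in the 779 other CD8-class cells with Ccr2.

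Antigen receptor segments were detected in few cells of these 3' libraries. Any beta V segment was seen in 27.0% of Gzmk-positive and 36.4% of other cells, any alpha V segment in 25.9% and 33.5%, and any gamma V segment in 5.04% and 24.9%. The segment with the highest ratio was Trbv5, in 10 of 278 Gzmk-positive cells (3.60%, 1.74 to 6.52) and 16 of 10841 others (0.148%), a log2 ratio of 4.82 (3.53 to 6.03). Of the 10 cells, 7 had 2 or 3 of the markers, 3 had 1 and none had 0. Trbv3 and Trav3-3 were each seen in 17 Gzmk-positive cells (6.12%), against 3.32% and 2.44% of others, and never in the same Gzmk-positive cell. Trav6-1 and Trav10d, the others of the 5 highest, rested on 2 UMIs each. The lowest with any UMI were Trav13-4-dv7 (-3.07), Trbv13-3 (-2.41) and Trav16 (-2.27), with 1 or 2 UMIs each.

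The library labelled Irf4-/- had almost none of these cells. Gzmk was detected in 1 of its 6648 CD3-positive cells (0.0150%, 0.000381 to 0.0838), by 1 UMI, against 278 of 11119 in the library labelled WT. No cell there survived thinning with a Gzmk UMI, although its CD3-positive cells were deeper, with a median of 9908 UMIs against 7244. A marker combination that does not use Gzmk was not seen there either, but its genes were given as markers of the Gzmk-positive cells. The comparison is thus a description. Taken singly, Maf was detected in 1.08% and Lag3 in 1.17% of CD3-positive cells labelled Irf4-/-, against 1.06% and 1.11% of other cells labelled WT. Those other cells leave out the Gzmk-positive cells. In all CD3-positive cells labelled WT the shares were 2.30% and 2.20%. Thinned, the shares labelled Irf4-/- were 0.301% and 0.331%. Those labelled WT were 0.564% and 0.434% of other cells and 1.38% and 1.05% of all CD3-positive cells. Havcr2 was detected in no CD3-positive cell labelled Irf4-/-. At least 2 of Maf, Lag3 and Havcr2 were detected in 0 of 6648 CD3-positive cells of the library labelled Irf4-/-, with an exact upper limit of 0.0555%. In the library labelled WT they were detected in 168 of 11119 (1.51%, 1.29 to 1.76). After thinning these were 0 of 6641 and 85 of 11096 (0.766%). With 1 library each, genotype, library and the animals used cannot be told apart.

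Gene by gene the libraries differed unevenly. Over 10715 genes with a mean of at least 1 CPM in CD3-positive cells, 57 (0.532%) were at least 2-fold lower and 125 (1.17%) at least 2-fold higher in the library labelled Irf4-/-. Of the 15 genes highest in Gzmk-positive cells, 6 were at least 2-fold lower there than in all CD3-positive cells of the library labelled WT, namely Havcr2, Coch, Maf, Lag3, Chst2 and Pdcd1. The genes were chosen as high in a part of those cells, so this is a description. Ccl3 (0.41), Ccl4 (0.54), Ifng (0.53) and S100a4 (0.50) were above 0 in the same comparison. Entpd1 (0.08, -0.20 to 0.35) and Hip1 (0.11, -0.10 to 0.31) had intervals that held 0. Gzmb (-0.76), Bcl2a1d (-0.65) and Camk2n1 (-0.36) were below 0 but not 2-fold lower. Gzmk-positive cells held 83.6% of the Havcr2 and 92.0% of the Coch UMIs of CD3-positive cells labelled WT but 2.04% of all UMIs. Leaving them out removes the cells in which the genes were chosen as high and sets the other library against cells chosen as low. Those values are a description only. Of the 15 genes, 3 were then at least 2-fold lower and 5 at least 2-fold higher in the library labelled Irf4-/-. Havcr2 had 0 and 45 UMIs, a log2 ratio of -3.67 or lower with the 0 set to 3 counts. Coch had 3 and 17 UMIs (-2.26, -4.67 to -0.47) and Maf 96 and 235 UMIs (-1.05). The 5 higher genes were Ccl3 (1.60), Ccl4 (1.25), Entpd1 (1.11), Ifng (1.04) and S100a4 (1.03). Over all genes in that contrast, 0.458% were at least 2-fold lower and 1.35% higher in the library labelled Irf4-/-. Klrg1, a receptor of terminal effector cells, had 0 UMIs in the library labelled Irf4-/- and 46 in the library labelled WT, 16 of them in Gzmk-positive cells.

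**Figure D5:**
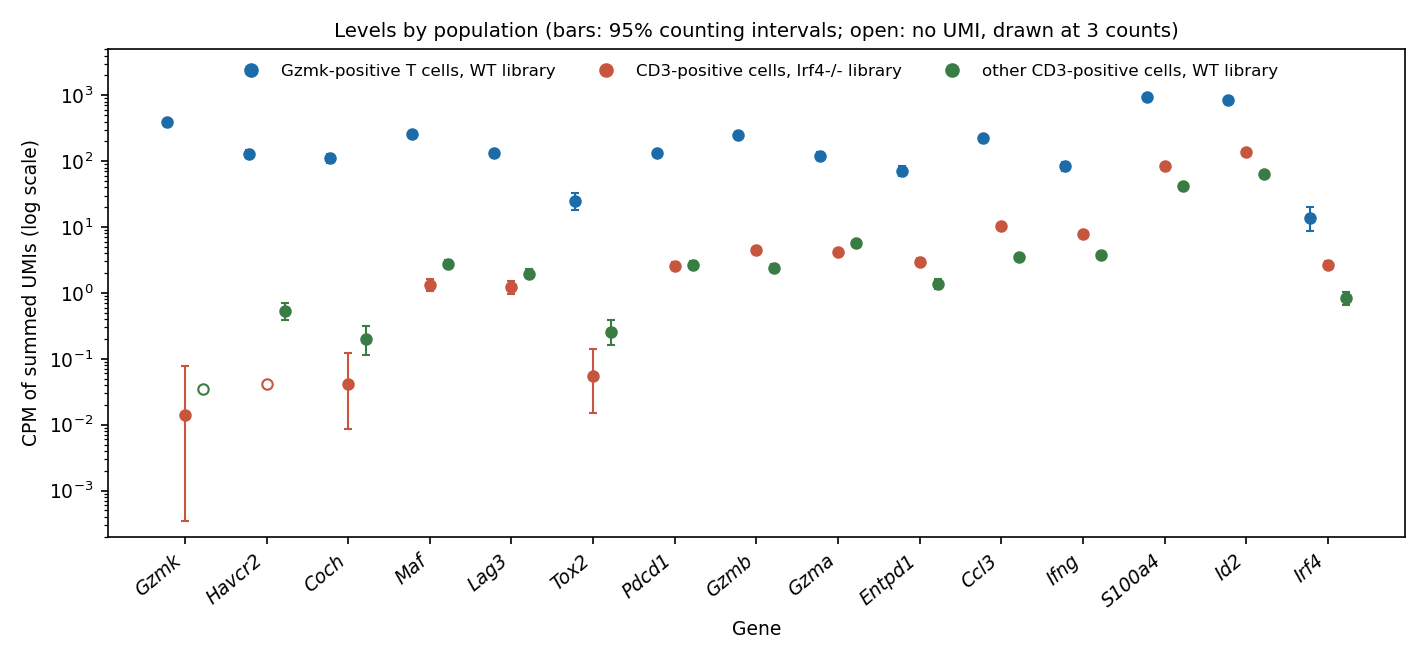
CPM of summed UMIs (y axis, log scale) of 15 genes (x axis) in Gzmk-positive T cells of the library labelled WT, CD3-positive cells of the library labelled Irf4-/- and other CD3-positive cells of the library labelled WT. Bars are 95% counting intervals and open circles are genes with no UMI, drawn at 3 counts. Gzmb stands at 253, 4.41 and 2.36 CPM and Maf at 258, 1.33 and 2.75 CPM.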

How the data were processed

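Single-cell 3' RNA was measured in 2 libraries. The authors deposited raw UMI counts, from Cell Ranger 6.1.1 per the file headers, on mm10 per the submitters' processing notes. Annotation and strand settings are not given in the sources used here. Barcodes with at least 500 genes, 1000 UMIs and under 10% mitochondrial UMIs were kept (7955 of 8147 labelled Irf4-/-, 12367 of 12732 labelled WT). No doublet caller was run. Counts were summed per population and scaled to CPM (Python 3.11.15, numpy 2.4.6, scipy 1.17.1, pandas 2.3.3), with exact Poisson, Clopper-Pearson and conditional binomial 95% intervals and a floor of 3 counts for a 0. For shares, each cell was also thinned to 2000 UMIs. This dropped 1 Gzmk-positive and 22 other cells. Named genes were the 15 highest and 12 lowest ratios at a mean of 30 CPM, without predicted, receptor segment, immunoglobulin, haemoglobin, ribosomal protein and mitochondrial genes, plus up to 6 genes per list and segments by rank. Other genes, and those with fewer counts, were chosen after their values were seen. The members and the 25 gene lists were chosen with earlier results of these data known. The calculation was tested on simulated data. Alternatives changed the gates, depth, weights, scaling and minima.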

Additional observations from a re-analysis of the deposited data

Results flagged for a closer look

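Gzmk was also seen outside the CD3-positive cells without Cd79a, in cells that entered no comparison above. Among kept cells with both CD3 and Cd79a UMIs, 0 of 203 in the library labelled Irf4-/- and 13 of 273 in the library labelled WT had Gzmk. The share labelled WT was 4.76% (2.56 to 8.01), with 31 UMIs in all, above the 0.118% of Cd79a cells without CD3. Whether they were pairs of a T and a B cell was not tested.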

How the results depend on the processing

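Under 13 planned and 4 added alternatives (the latter chosen after seeing the data) the ratios of Maf, Lag3, Havcr2 and the 25 other named genes did not change sign where an alternative gave them. Slamf6 at 0.05 was below 0 when centred on the median gene, and the median of the innate-like list changed sign under some alternatives. Requiring at least 2 or at least 3 Gzmk UMIs gave log2 ratios of 7.03 and 7.33 for Maf and 6.40 and 6.66 for Lag3, and 8.70 for Havcr2 at 3. It also gave 286 and 427 genes at least 2-fold higher, 103 and 147 genes at least 2-fold lower, and shares of CD3-positive cells with Gzmk of 1.47% and 0.950%. Reweighting to depth gave 4.85, 4.38 and 5.34 for Maf, Lag3 and Havcr2, reweighting to coreceptor classes 4.75 for Maf, CD8-class cells alone 7.01 for Maf, and the mean of per-cell CPM 7.40 for Havcr2 and 93 lower genes. Thinning gave 287 higher and 102 lower genes, a Gzmk share of 1.49% and a share with at least 2 of the 3 markers of 0.766%. Without thinning, the share was 1.51% for at least 2 markers and 0.567% for all 3. A minimum of 20 UMIs gave 1221 higher and 644 lower genes, a minimum of 100 CPM 64 and 14, and centring on the median gene 120 and 93. The cause of each was not tested, beyond the number of genes that enter. Of 338 values for 25 named genes, 231 stayed within the counting interval. No paired analysis was possible because each genotype has 1 library. A gene with few UMIs in 278 cells has a wide interval, and absence at this depth is not absence of expression.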
